A study of Mus musculus with 6 samples.

Results

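The D cyclins Ccnd1, Ccnd2 and Ccnd3, their kinases Cdk4 and Cdk6, the cyclin-dependent kinase inhibitors Cdkn1a, Cdkn1b, Cdkn1c and Cdkn2c, and the neuronal kinase activator Cdk5r1 were followed in mouse corticothalamic projection neurons around birth. A probe set was included if it was annotated to exactly 1 gene symbol and that symbol was one of these 10 genes. This gave 29 probe sets for 10 genes, of 34945 probe sets and 18193 genes with 1 symbol on the array. The number of probe sets per gene ran from 1 for Cdkn1c and Cdkn2c to 7 for Ccnd2. No value chose among the probe sets of a gene. The 10 genes, and the gene lists used below, were chosen with earlier results of these data known.

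The samples were 6 Affymetrix arrays of RNA from wild-type C57BL/6 mice, with 2 arrays at each of 3 stages called E18, P3 and P6. Green fluorescent microspheres were injected into the thalamus, from where axons carried them back to the cell bodies, and the labelled neurons were then sorted by fluorescence from dissociated cortex. The E18 neurons were labelled at E17.5 and collected at E18.5, the P3 neurons were labelled at P1 and the P6 neurons at P4. Labelling thus lasted 1 day before E18 collection and 2 days before P3 and P6 collection, which cannot be told apart from stage. All groups shared genotype and label, and none was an unlabelled or unsorted control.

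D cyclins bind Cdk4 or Cdk6, and the active kinase phosphorylates the retinoblastoma protein and its relatives, which releases E2F transcription factors and lets a cell enter S phase. Ink4 inhibitors such as p18 (Cdkn2c) bind Cdk4 and Cdk6 directly, whereas the Cip/Kip inhibitors p21 (Cdkn1a), p27 (Cdkn1b) and p57 (Cdkn1c) bind cyclin-kinase complexes more widely and act when cortical progenitors leave the cycle. Neurons no longer divide, and their related kinase Cdk5 is switched on by p35 (Cdk5r1) instead of by a cyclin and acts in migration, axon growth and synapses.

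Replicates resembled each other more at E18 than later, and some cell type markers on the E18 arrays went against their label. Across 45101 probe sets the replicate correlation was 0.998 at E18, 0.961 at P3 and 0.976 at P6, with 0, 3664 and 1710 probe sets over 2-fold apart. The labels name no separate animals or cell sorts for replicates, and the p-values below may reflect technical spread alone. Log2 signal of the 18S ribosomal probes averaged 14.2 for P3 replicate 2 and 13.9 for P6 replicate 1, where the other 4 arrays had 11.3 to 11.8. Hybridization controls averaged 9.59 and 9.25 on the E18 pair, 11.7 and 11.6 on the P3 pair and 13.0 and 9.85 on the P6 pair, lowest on both E18 arrays. The 3' minus 5' log2 difference of the Actb probes, a sign of RNA quality, was 0.56 and 0.58 on the E18 pair, 1.19 and 1.76 on the P3 pair and 1.06 and 0.82 on the P6 pair, and that of Gapdh was also lowest at E18, at 1.48 and 1.44, where the later arrays had 1.68 to 2.55. Hybridization controls and 18S were each tried as a covariate, and the part of the 3' minus 5' differences in the changes was not tested. All 9 corticothalamic neuron markers, among them Tbr1, Tle4 and Foxp2, were higher at P3 and at P6 than at E18, a count that fell to 3 at P3 and 5 at P6 under the least favourable of 17 alternatives to the processing. Of 14 markers of radial glia and intermediate progenitors, 12 were lower at both later stages, and at least 11 under each alternative. Over all genes, each by its brightest probe set, 12.1% were higher and 18.3% lower at P3. At P6 these shares were 10.2% and 12.3%. Sox2, which neurons shut off, stood at 12.12 and 12.07 log2 units on the E18 pair, 5.26 and 5.43 on the P3 pair and 4.66 and 6.32 on the P6 pair. In sorted populations, fewer cells of a type and less RNA per cell cannot be told apart.

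At P3, 6 of the 10 genes were lower than at E18 and 0 were higher: all 3 D cyclins, both of their kinases and the Ink4 inhibitor Cdkn2c. Falls ran from 3.33-fold for Ccnd1 to 25.1-fold for Ccnd2. Each gene is counted by its lead probe set, the one with the highest mean over the 6 arrays, and a call is an adjusted p below 0.05 in limma's moderated test with Benjamini-Hochberg adjustment over all 34945 probe sets. Over all 18193 lead probe sets, 18.3% were lower and 12.1% were higher in the same comparison. At P6 the calls against E18 were 6 lower and 2 higher, where the background was 12.3% and 10.2%. The 6 lower at P6 were Ccnd1, Ccnd2, Cdk4, Cdk6, Cdkn2c and Cdkn1b, and Ccnd3 was not called. Cdkn1a and Cdk5r1 were the genes that were higher. With the closely matching E18 arrays averaged into 1, 6 genes were lower at P3, and 4 were lower and 0 higher at P6. Between P6 and P3 no gene was called. The median change of the 10 genes was -2.04 at P3 and -1.19 at P6 against E18, on the log2 scale, beside 0.09 and 0.13 over all lead probe sets.

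**Figure D1:**
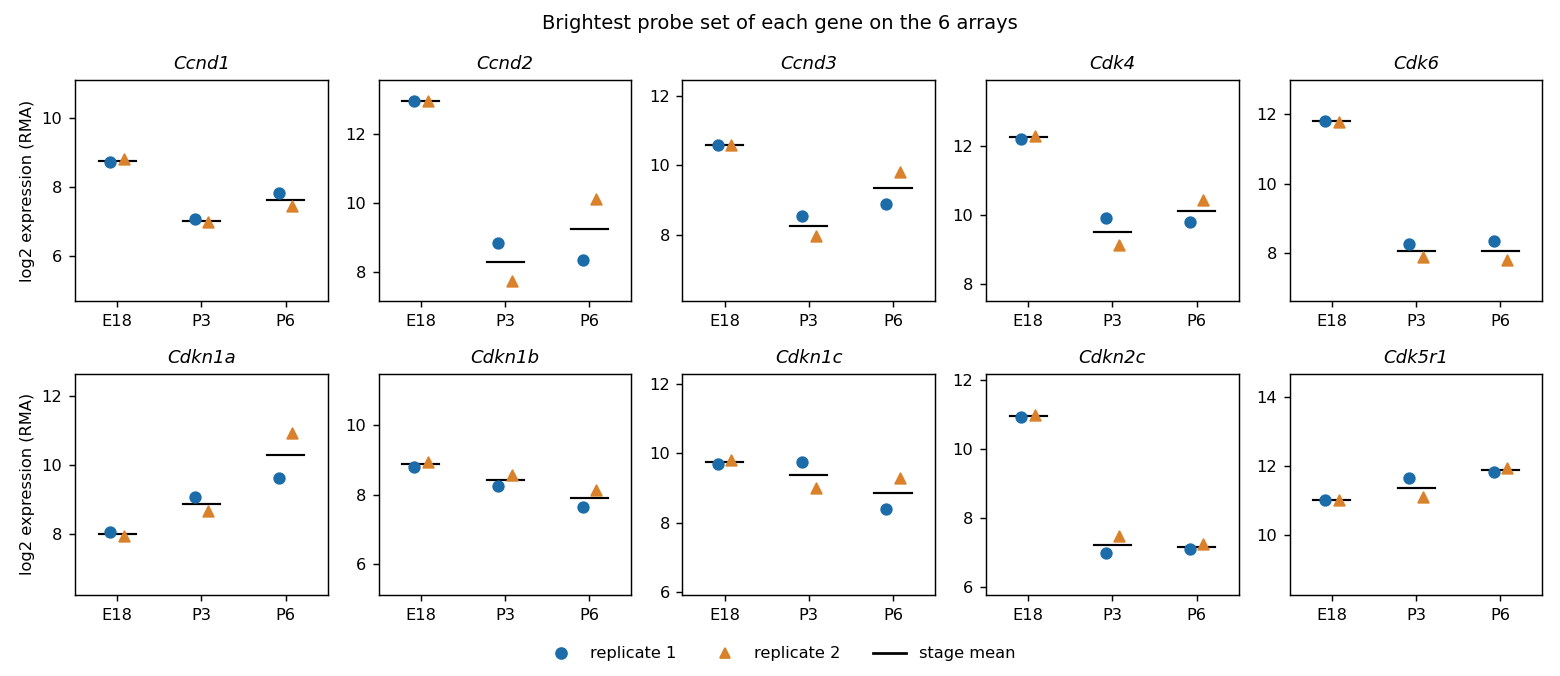
Log2 expression of the lead probe set of each of the 10 genes on every array, by stage (E18, P3, P6), with points for single arrays and lines for stage means. Ccnd2, Cdk4, Cdk6 and Cdkn2c stood above both later stages on both E18 arrays, and Cdkn1a stood below them. Levels of different genes are not comparable between panels.

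Ccnd2, a D cyclin known from cortical progenitors, had the largest change among the 10 lead probe sets at P3. Its lead probe set 1416122_at read 12.96 and 12.93 log2 units on the E18 pair, 8.83 and 7.76 on the P3 pair and 8.35 and 10.12 on the P6 pair. Both E18 arrays lay above every later array, and the P3 and P6 arrays overlapped. The change at P3 against E18 was -4.65 ± 0.60 log2 units (SE, n = 2 arrays per stage), a 25.1-fold fall with an adjusted p of 0.00232 in limma. At P6 it was -3.71 ± 0.60, a 13.1-fold fall with an adjusted p of 0.00573. All 7 Ccnd2 probe sets were lower at P3, by 4.18-fold to 41.0-fold, and all 7 were lower at P6. At P6 the arrays disagreed on size. On 5 of the 7 probe sets replicate 2 was above replicate 1, and on the other 2, which were dim at both later stages, it was below. Leaving out P6 replicate 1 put the lead change at -2.83 and leaving out P6 replicate 2 put it at -4.60. With the hybridization controls as a covariate it was -2.63 and no longer called (adjusted p = 0.0586).

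P6 replicate 2 also had more signal of some other cell types. The mean of 10 microglia markers, among them C1qa and Cx3cr1, was 8.91 and 8.90 log2 units on the E18 pair, 6.47 and 7.22 on the P3 pair and 6.99 and 8.56 on the P6 pair. The mean of 9 astrocyte markers was 9.58 and 9.61 on the E18 pair, 6.67 and 6.79 on the P3 pair and 7.41 and 8.26 on the P6 pair. Other lists differed less on the P6 pair. Oligodendrocyte lineage markers averaged 6.50 and 6.70 there. Interneuron markers, at 6.61 and 6.19, and endothelial and pericyte markers, at 6.18 and 6.11, were lower on replicate 2. At P3, 5 of the 10 microglia markers and 5 of the 9 astrocyte markers were lower than at E18, beside 18.3% of all lead probe sets. Over the alternatives these counts ran from 1 to 8 and from 5 to 7. At P6, 0 microglia and 5 astrocyte markers were lower, beside 12.3%, with ranges of 0 to 7 and 3 to 6. Lead probe sets of 8 of the 10 genes were higher on P6 replicate 2 than on P6 replicate 1. They were those of Ccnd2, Ccnd3, Cdk4, Cdkn1a, Cdkn1b, Cdkn1c, Cdkn2c and Cdk5r1, and those of Ccnd1 and Cdk6 were lower. The share of all lead probe sets that were higher on P6 replicate 2 is not given here, so 8 of 10 has no background. P6 replicates 1 and 2 also differed in hybridization controls (13.0 and 9.85) and in ribosomal probes (13.9 and 11.3). The other Cdkn1a probe set read 9.33 on P6 replicate 1 and 8.95 on P6 replicate 2. The part of these cell types in the values of the 10 genes was not tested.

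Ccnd1, the D cyclin that responds to growth factors in many cell types, changed less. Its lead probe set 1448698_at read 8.71 and 8.82 on the E18 pair, 7.07 and 6.99 on the P3 pair and 7.82 and 7.46 on the P6 pair. On this probe set the arrays of the 3 stages did not overlap, with E18 highest and P3 lowest. The other 2 probe sets did not put P3 below P6: their P6 minus P3 changes were -0.06 and -0.32, and the mean of the 3 probe sets gave 0.076. The change was -1.74 ± 0.23 at P3 (adjusted p = 0.00236 in limma) and -1.12 ± 0.23 at P6 (adjusted p = 0.0135), falls of 3.33-fold and 2.18-fold. All 3 Ccnd1 probe sets were lower at both stages. The P6 call was lost without E18 replicate 1 or 2, with adjusted p of 0.128 and 0.17.

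Ccnd3 was read differently by its 3 probe sets. The lead probe set 1415907_at stood at 10.60 on both E18 arrays, 8.54 and 7.96 on the P3 pair and 8.88 and 9.81 on the P6 pair. E18 lay above P6 and P6 above P3, without overlap. Its change was -2.35 ± 0.37 at P3, a 5.08-fold fall with an adjusted p of 0.00506 in limma, and -1.25 ± 0.37 at P6, where the adjusted p of 0.055 missed the threshold. The other probe sets, 1438805_at and 1444323_at, had changes at P3 of 0.21 and 0.41 and neither was called. 1438805_at read between 4.06 and 4.55 on all 6 arrays, near the dim end of the array. With the mean of the 3 probe sets in place of the lead, the change was -0.58 at P3 and -0.22 at P6. With the hybridization covariate the lead change at P3 was -1.71 and not called (adjusted p = 0.0695).

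Cdk4 and Cdk6, the catalytic partners of the D cyclins, both fell. Cdk4, on probe set 1422441_x_at, read 12.21 and 12.30 on the E18 pair, 9.92 and 9.13 on the P3 pair and 9.81 and 10.43 on the P6 pair. The suffix marks probes that may also match other transcripts, but the other 2 Cdk4 probe sets were lower at both stages too. Its change was -2.73 ± 0.34 at P3, a 6.65-fold fall with an adjusted p of 0.002 in limma, and -2.13 ± 0.34 at P6, a 4.38-fold fall with an adjusted p of 0.00541. The P6 call was lost with the hybridization covariate and without P6 replicate 1, with adjusted p of 0.0796 and 0.0503. Cdk6, on 1455287_at, read 11.82 and 11.79 on the E18 pair, 8.25 and 7.88 on the P3 pair and 8.33 and 7.78 on the P6 pair. The later arrays of Cdk6 lay close together, and the fall was 13.4-fold at both P3 and P6, with adjusted p of 0.000232 and 0.000235. A second Cdk6 probe set fell by 13.6-fold at P3 and 21.4-fold at P6. The third, 1460291_at, read between 5.14 and 6.21 on all arrays and was not called.

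Cdkn2c, the Ink4 inhibitor of Cdk4 and Cdk6, fell with the kinases it inhibits. Its single probe set 1416868_at read 10.93 and 10.97 on the E18 pair, 6.98 and 7.48 on the P3 pair and 7.11 and 7.24 on the P6 pair. The E18 arrays stood far above the later ones, which overlapped. The fall was 13.2-fold at P3 (log2 change -3.72 ± 0.25, adjusted p = 0.000162 in limma) and 13.7-fold at P6 (-3.77 ± 0.25, adjusted p = 0.000157). Of the other inhibitor genes, Cdkn3, a phosphatase that acts on cyclin-dependent kinases, fell by 4.89-fold at P3 and the Ink4 gene Cdkn2d by 2.82-fold, while Cdkn2a rose by 1.69-fold at a low level. Cdkn2b was not called. The P3 calls were lost under 6 of 17 alternatives for Cdkn2d, 1 of 17 for Cdkn3 and 4 of 15 for Cdkn2a. At P6 only Cdkn3 of these 4 genes was called, at 6.42-fold lower.

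**Figure D2:**
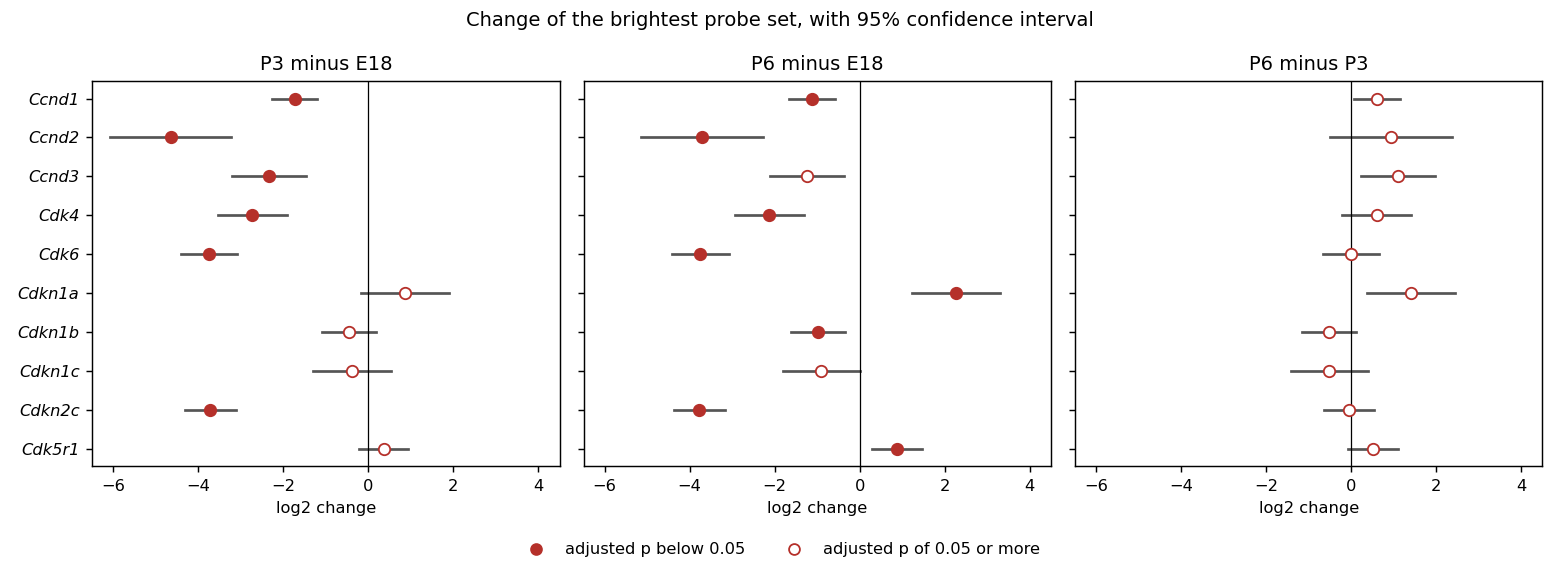
Log2 change of the lead probe set of each gene at P3 against E18, P6 against E18 and P6 against P3, with 95% confidence intervals from the limma fit. The intervals of Ccnd2, Cdk6 and Cdkn2c against E18 lie well below 0, and that of Cdkn1a at P6 against E18 lies above 0.

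Of the 3 Cip/Kip inhibitors, Cdkn1a was higher and Cdkn1b lower at P6 than at E18, and Cdkn1c was not called. Cdkn1a, which p53 induces in many tissues, read 8.06 and 7.95 on the E18 pair, 9.09 and 8.66 on the P3 pair and 9.62 and 10.94 on the P6 pair on probe set 1424638_at. The arrays of the stages did not overlap and E18 was lowest. The change at P3 was 0.87 ± 0.44 log2 units and was not called (adjusted p = 0.163 in limma). At P6 Cdkn1a was 4.84-fold higher (2.27 ± 0.44, adjusted p = 0.0113), and its other probe set was 4.09-fold higher (adjusted p = 0.00401). The lead change was 2.94 without P6 replicate 1 and 1.61 without P6 replicate 2. Without E18 replicate 1 or 2 the adjusted p was 0.0521 and 0.0638.

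Cdkn1b read 8.80 and 8.95 on the E18 pair, 8.26 and 8.57 on the P3 pair and 7.64 and 8.14 on the P6 pair on 1434045_at. Its change of -0.46 ± 0.26 at P3 was not called, and at P6 it was 1.98-fold lower with an adjusted p of 0.0409 in limma. This call was lost under 8 of the 17 alternatives to the processing. Its dimmer probe set, 1419497_at, read 5.62 and 8.07 on the P3 arrays, a gap wider than any stage difference of the lead, and was not called. Cdkn1c, which is expressed as progenitors leave the cycle, read 9.70 and 9.81 on the E18 pair, 9.74 and 8.99 on the P3 pair and 8.40 and 9.30 on the P6 pair on 1417649_at. The E18 and P3 arrays overlapped. Neither change against E18 was called, with 95% confidence intervals of -1.30 to 0.52 at P3 and -1.81 to 0.005 at P6.

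Cdk5r1 encodes p35, and none of its 4 probe sets had a negative change against E18. The lead probe set 1433451_at read 11.00 and 11.01 on the E18 pair, 11.64 and 11.09 on the P3 pair and 11.83 and 11.93 on the P6 pair. E18 was lowest and P6 highest without overlap. Its change was 0.36 ± 0.24 at P3 (adjusted p = 0.275 in limma) and 0.87 ± 0.24 at P6, 1.83-fold higher with an adjusted p of 0.0459. That call was lost under 7 of 17 alternatives. A second probe set, 1433450_at, read 8.88 and 8.90 on the E18 pair, 10.77 and 10.05 on the P3 pair and 10.56 and 10.10 on the P6 pair. It was 2.86-fold higher at P3 and 2.71-fold higher at P6, with adjusted p of 0.0145 and 0.0187. The third, 1421123_at, was 2.24-fold higher at P3 (adjusted p = 0.0467), and 1421124_at was not called at either stage.

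**Figure D3:**
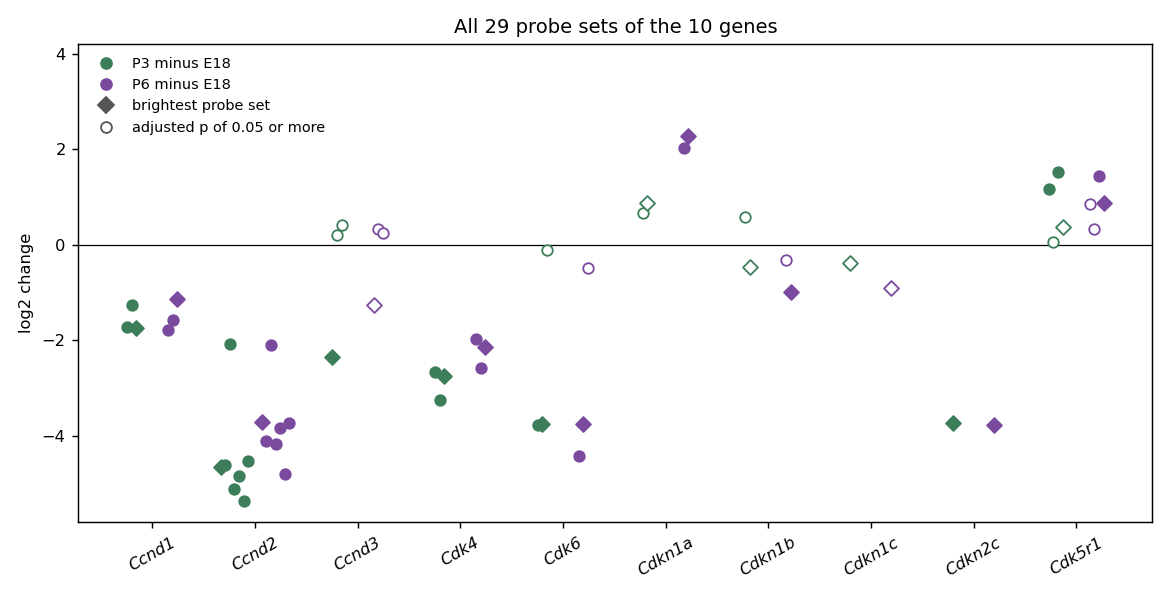
Log2 change against E18 of all 29 probe sets, grouped by gene, at P3 and at P6. Diamonds are lead probe sets and open symbols have an adjusted p of 0.05 or more. All probe sets of Ccnd1, Ccnd2, Cdk4 and Cdk6 lie below 0, with 1 of Cdk6 close to it. Those of Cdk5r1 lie above 0 and spread, and those of Ccnd3 lie on both sides.

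Between P6 and P3, limma called 0 of the 10 genes and 0 of all 18193 lead probe sets. At an unadjusted p below 0.05 it passed 3 of the 10 genes, Ccnd1, Ccnd3 and Cdkn1a, where the background was 16.1%. The changes ran from -0.53 for Cdkn1b to 1.40 for Cdkn1a, with Cdkn1a at the smallest adjusted p, 0.238. The 95% confidence interval for Cdkn1a was 0.37 to 2.44, that for Ccnd2 was -0.49 to 2.37 and that for Cdk6 was -0.67 to 0.65. These intervals and unadjusted p-values use a spread shared by all 3 stages, including the closely matching E18 pair. With only P3 and P6 fitted, the SE went from 0.44 to 0.49 for Cdkn1a, 0.60 to 0.62 for Ccnd2 and 0.28 to 0.37 for Cdk6. Arrays of P6 and P3 did not overlap for 5 of 10 genes, beside 41.9% of all lead probe sets. A moderated F test over the 3 stages called 7 of the 10 genes, beside 25.7%: the 6 genes lower at P3 and Cdkn1a. The arrays of the stages did not overlap for 9 of 10 genes between P3 and E18 and for 10 of 10 between P6 and E18, where 79.9% and 78.1% of all lead probe sets did not overlap either. Over all member probe sets, P3 had 17 lower and 2 higher of 29, beside 17.1% and 11.5% of all probe sets, and P6 had 17 lower and 4 higher, beside 12.4% and 8.76%.

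Of 22 other genes of G1 and the G1/S step, 14 were lower and 3 higher at P3, and 14 were lower and 1 higher at P6. The shares over all lead probe sets were 18.3% lower and 12.1% higher at P3, and 12.3% and 10.2% at P6. Over 17 alternatives the lower count ran from 6 to 16 at P3 and from 8 to 15 at P6. Rbl1, a pocket protein and relative of the retinoblastoma protein, fell by 50.1-fold at P3, E2f7 and E2f8, repressors of E2F targets, fell by 9.46-fold and 4.54-fold, and Ccne1, a cyclin that works with Cdk2, fell by 3.38-fold. With the mean of a gene's probe sets in place of the lead, the calls held but the changes at P3 were -1.92 for Rbl1, -0.96 for E2f8 and -1.14 for Ccne1, on the log2 scale. Rb1 itself was not called, with a change of -0.62 ± 0.25 at P3 (adjusted p = 0.0994). Myc was higher and its relative Mycn lower at both stages, with changes of 1.32 and -2.03 log2 units at P6. The P3 calls of both were lost under 4 of 17 alternatives, as was the P6 call of Myc, and Mycn was -0.44 at P3 and -0.69 at P6 with the mean of its probe sets. Rb1, Myc and Mycn were named after their values were seen.

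All 13 measured genes of the S, G2 and M phases fell at P3 and at P6, and 12 or 13 were lower under each of the 17 alternatives. The median change was -5.09 at P3 and -5.03 at P6. Top2a, which untangles DNA for division, fell by 95.8-fold at P3, Cdk1 by 77.3-fold, Plk1 by 49.3-fold and Bub1 by 33.8-fold. With the mean of a gene's probe sets the changes at P3 were -2.65 log2 units for Top2a and -4.11 for Bub1, both called. Cdk1, the kinase that starts mitosis, read 13.28 and 13.27 on the E18 pair, 7.03 and 6.97 on the P3 pair and 6.97 and 7.12 on the P6 pair. The mean of the 14 progenitor markers was 10.89 and 10.90 on the E18 pair, 6.34 and 6.61 on the P3 pair and 6.50 and 6.67 on the P6 pair. These markers were lower where the lead probe sets of Ccnd1, Ccnd2, Ccnd3, Cdk4, Cdk6 and Cdkn2c were lower at P3, and the part of progenitor RNA in the changes of the 10 genes was not tested. Between P6 and P3 the median change of the mitotic list was 0.08. The lead changes of Ccnd1, Ccnd2, Ccnd3 and Cdk4 were 0.61, 0.94, 1.10 and 0.60. Those of Cdk6 and Cdkn2c were -0.007 and -0.052, and none of these genes was called. With the mean of a gene's probe sets, Ccnd1, Ccnd2, Ccnd3, Cdk4 and Cdk6 were 0.076, 0.67, 0.36, 0.65 and -0.35. The interneuron, oligodendrocyte lineage, and endothelial and pericyte lists had 3, 2 and 3 members lower at P3, of 8, 7 and 9, and 1 interneuron marker was higher. Over all lead probe sets 18.3% were lower and 12.1% higher at P3, and 12.3% and 10.2% at P6.

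Antiproliferative genes were lower or not called, and p53 pathway genes held calls in both directions at P3. Of 4 measured BTG and TOB genes, 3 were lower at both stages: Btg2, which marks progenitors about to make neurons, fell by 5.70-fold at P3, Btg1 by 2.95-fold and Tob1 by 2.02-fold. Tob2 was not called. The P3 call of Tob1 was lost under 9 of 17 alternatives and that of Btg1 under 4, and the lower count ran from 1 to 3 at P3 and from 2 to 3 at P6. Of 10 measured p53 pathway genes, 4 were higher and 2 lower at P3, beside 12.1% and 18.3% of all lead probe sets. Plk2, a kinase that acts at synapses, was 5.88-fold higher, Gadd45a 2.33-fold, Rrm2b 2.03-fold and Bbc3 2.09-fold higher, and Sesn1 and Zmat3 were 2.95-fold and 2.25-fold lower. At P6 2 of the 10 were higher, Plk2 by 6.15-fold and Bbc3 by 2.24-fold, and 0 were lower. Over all lead probe sets 10.2% were higher and 12.3% lower at P6. Over 17 alternatives the higher count ran from 1 to 5 and the lower count from 0 to 3 at both stages. The P3 call of Sesn1 was lost under 8 of 17 alternatives and that of Rrm2b under 4, and Plk2 was 1.72 log2 units at P3 and 1.11 at P6 with the mean of its probe sets. Bbc3 and Zmat3 were named after their values were seen.

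Among Cdk5 and its other partners, 1 of 7 genes was higher and 1 lower at both stages. Over all lead probe sets 12.1% were higher and 18.3% lower at P3, and 10.2% and 12.3% at P6. Cdk5r2, which encodes the other neuronal activator p39, was 2.80-fold higher at P3 and 3.56-fold higher at P6. Cdk5rap2, a centrosome protein, fell by 4.28-fold at P3 and 3.68-fold at P6. With the mean of its probe sets Cdk5rap2 was -0.64 at P3 and -0.62 at P6, on the log2 scale, and the P3 call of Cdk5r2 was lost under 3 of 17 alternatives. Cdk5 was not called, with changes of -0.41 ± 0.38 at P3 and 0.66 ± 0.38 at P6, and it was named after its values were seen. Of 11 measured genes for Cdk5 substrate proteins, 9 were higher at P3 and 8 at P6, with none lower. Dpysl2, which acts in axon growth, was 4.07-fold higher at P3, and the neurofilament genes Nefm and Nefh were 3.11-fold and 2.30-fold higher. Amph, an endocytosis protein, was higher at both stages, by 5.06-fold at P6. Over 17 alternatives the higher count ran from 2 to 9 at P3 and from 4 to 10 at P6. The P3 calls of Dpysl2, Nefm and Nefh were lost under 1, 2 and 4 of them. The mean of the general neuron markers was 10.12 and 10.17 on the E18 pair, 12.09 and 11.92 on the P3 pair and 12.17 and 11.97 on the P6 pair. These markers moved with the Cdk5 substrate genes, and their part in those changes was not tested.

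**Figure D4:**
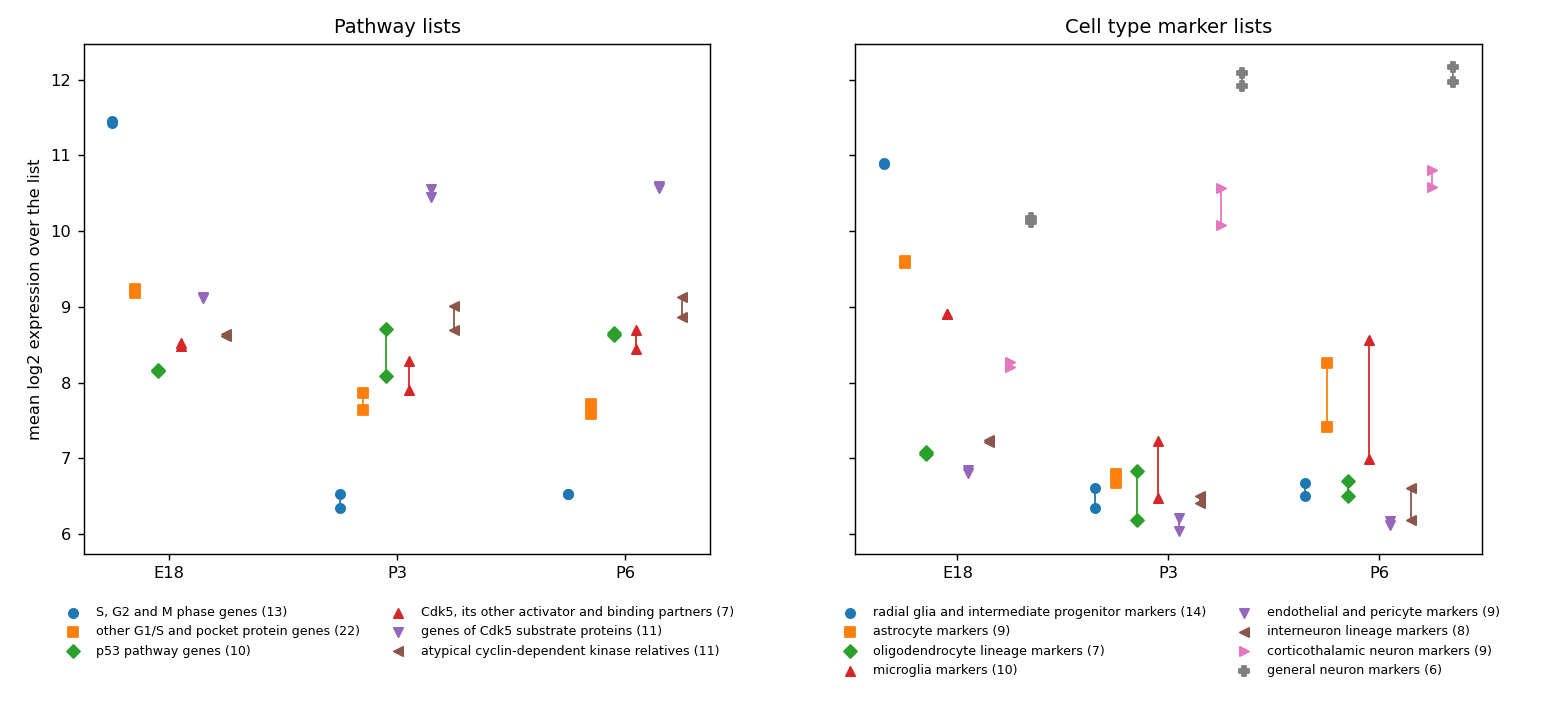
Mean log2 expression of pathway gene lists (left) and cell type marker lists (right) on each array, by stage, with the number of measured genes in each list. Lines join the replicates of a stage. The S, G2 and M phase list and the progenitor list drop at P3 and stay low at P6, and the corticothalamic and general neuron lists lie higher at P3 and P6 than at E18.

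As a description over the 6 arrays, the genes most like each of the 6 members lower at P3 were ranked by Pearson correlation among 2579 genes that ranged over at least 2 log2 units. The arrays share the stage difference, so many genes came close: between 197 genes for Ccnd3 and 776 for Cdk6 had a correlation above 0.95. The closest to Ccnd1 were Abl1, Frmd8 and Rrm1, and to Ccnd2 Pnp, Ptprc and Ube2s. Chmp6, Tmem242 and Dchs1 were closest to Ccnd3, Csad, Aldh7a1 and Stard3 to Cdk4, Arhgap18, Rlbp1 and Ckap2 to Cdk6, and Acsbg1, Cenph and Ndnf to Cdkn2c. All of these correlations were above 0.99.

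Promoter windows from RefSeq on GRCm38.p6 were available for 6 of the 10 genes, with 9 windows of 250 bases before and 50 after a gene start. Cdk4 and Cdkn1a are printed because they moved in opposite directions and for the motifs in their windows. Few windows hold the motif marked in Cdkn1a, or as many copies of the motif marked in Cdk4. Capitals mark the E box CACGTG in the Cdk4 window, which lies at chr10:127063285-127063584 on the plus strand, and a p53 response element in the Cdkn1a window, at chr17:29090729-29091028 on the plus strand.
Cdk4: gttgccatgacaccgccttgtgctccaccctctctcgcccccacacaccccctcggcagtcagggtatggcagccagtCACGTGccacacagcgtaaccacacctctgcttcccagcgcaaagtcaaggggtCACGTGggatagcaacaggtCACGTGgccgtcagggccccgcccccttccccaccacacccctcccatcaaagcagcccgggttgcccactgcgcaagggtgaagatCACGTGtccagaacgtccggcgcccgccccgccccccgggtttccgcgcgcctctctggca
Cdkn1a: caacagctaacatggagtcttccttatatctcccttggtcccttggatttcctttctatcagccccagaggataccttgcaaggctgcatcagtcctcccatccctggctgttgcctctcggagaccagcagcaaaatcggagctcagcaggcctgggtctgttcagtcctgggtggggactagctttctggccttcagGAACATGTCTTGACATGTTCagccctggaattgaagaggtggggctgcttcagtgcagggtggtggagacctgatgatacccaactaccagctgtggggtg

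The Cdk4 window held 4 E boxes, at 172, 118, 98 and 11 bases before the start, and CACGTG, searched on both strands, was in 7.15% of 32851 windows. 8 windows, or 0.0244%, held at least 4 copies, a limit equal to the Cdk4 window's own count. Cdk6 had 1 E box, 220 bases before its start, and 1 of the 2 Cdkn2c windows had 1. The p53 response element, sought as paired half-sites without a spacer and with at most 1 mismatch, was found in 29 windows, or 0.0883%. It was in 1 of the 2 Cdkn1a windows, where it had 1 mismatch and began 51 bases before the start. The E2F motifs TTTCGCGC and TTTGGCGC, in 0.323% and 0.514% of windows, and the cell cycle motif TTTGAA, in 17.9%, were in none of the 9 windows, which says only that these letters are not there. The GC box GGGCGG, in 35.7% of windows, was present in Cdkn2c, Cdk4, Cdkn1b, Cdkn1a and Ccnd3.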

How the data were processed

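The deposited table holds log2 signal for each probe set. The submitters' processing notes name RMA, which corrects background, normalizes and summarises probes. The version, and whether the arrays were processed together, are not given in the sources used here. Values were used as deposited. Of 45101 probe sets, 34945 had 1 gene symbol in the platform annotation, 932 had several, 9160 had none and 64 were controls, and only the first were used. limma 3.58.1 in R 4.3.3 fitted stage means on all 6 arrays with an intensity trend, no filter on dim probe sets and 3 residual degrees of freedom. Tests were 2-sided, with Benjamini-Hochberg adjustment over all probe sets and a threshold of 0.05. They were also run on simulated data that gave every stage the same spread. These arrays do not have equal spread, so that run cannot show how well the tests hold here. Python 3.11.15, pandas 2.3.3 and matplotlib 3.10.9 made the summaries and plots.

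A lead probe set is a gene's brightest on average. All 10 genes were named, up to 4 genes per pathway list by smallest p in P3 against E18, and the 3 most correlated genes per called member. Exceptions are stated where they occur. The 8 pathway and 8 marker lists, and the members, were chosen with earlier results of these data known. The 17 alternatives changed probe set choice, filter, normalization, trend, weights, covariates, block or arrays. The number of arrays limits the precision.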

Additional observations from a re-analysis of the deposited data

How the results depend on the processing

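Calls in P3 against E18 held under all 17 alternatives for Ccnd1, Ccnd2, Cdk4, Cdk6 and Cdkn2c, and in P6 against E18 for Cdk6 and Cdkn2c. With the hybridization control as a covariate, Ccnd3 at P3 was -1.71 with an adjusted p of 0.0695, and at P6 Ccnd2 and Cdk4 were -2.63 and -1.76, with adjusted p of 0.0586 and 0.0796. That setting left 3 members lower and 1 higher at P6. Averaging the E18 arrays left 0 higher at P6, with Ccnd1 at an adjusted p of 0.148 and Cdkn1a at 0.0579. Without P6 replicate 1, Cdk4 was -1.82 with an adjusted p of 0.0503. 1 member was higher at P3 with an 18S covariate (Cdkn1a, 1.47), with the mean of probe sets or after quantile normalization (both Cdk5r1). The Ccnd3 call at P6 was gained under 9 alternatives. Leaving out 1 array at a time gave 0 to 1 members higher at P3, 4 to 7 lower and 0 to 2 higher at P6, and 0 to 1 higher in P6 against P3. The last was Cdk5r1 without P3 replicate 1 (0.79, adjusted p = 0.0262), a setting that called 6277 of all probe sets against 0 otherwise. Same-numbered arrays did not deviate together (correlations -0.168, 0.056 and -0.237), so the numbers were not taken to pair them. With the replicate number as a block, 1 member was higher at P6, the adjusted p of Cdk5r1 being 0.0791. Signs of changes that were not called turned. For P3 against E18 Cdkn1b was 0.059 with the mean of probe sets and 0.015 after quantile normalization, Cdkn1c was 0.17, 0.22 and 0.073 with the 18S covariate, the hybridization covariate and quantile normalization, and Cdk5 was 0.13, 0.0062 and 0.056 under the same 3, and between -0.89 and 0.075 without 1 array. Cdkn2d at P6 against E18 was 0.021 and 0.094 under the 2 covariates. For P6 against P3, Cdk6 was 0.0099 and 0.033 under them, and without 1 array Cdk6 ran from -0.28 to 0.27 and Cdkn2c from -0.30 to 0.20. Over all probe sets, 9981 were called in P3 against E18 and 7389 in P6 against E18. With the E18 arrays averaged these were 3097 and 3098, with the hybridization covariate 3406 and 3800, without E18 replicate 1 3226 and 3173, and without E18 replicate 2 3052 and 3064. Array weights gave 11842 for P6, leaving out P6 replicate 1 gave 4751, and leaving out P3 replicate 1 gave 16480 for P3. Fewer arrays were fitted where arrays were left out or averaged, and the cause of the other shifts was not tested. Probe sets near the dim end of the array understate folds.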

Other observations

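A list of other relatives of the cyclin-dependent kinases, together with the cyclin genes Ccny and Ccnyl1, held calls in both directions. These genes are not known for driving the cell cycle in neurons. Of 11 measured genes, 3 were higher and 3 lower at P3 than at E18, beside 12.1% and 18.3% of all lead probe sets. At P6, 2 were higher and 1 lower, beside 10.2% and 12.3%. The gene lower at P6 was Ccny, by 2.85-fold (adjusted p = 0.0215 in limma). Ccny and Ccnyl1 were named after their values were seen. Cdkl2 read 5.89 log2 units on both E18 arrays, 10.16 and 9.96 on the P3 pair and 10.15 and 10.05 on the P6 pair. It was 17.9-fold higher at P3 and 18.4-fold higher at P6, with adjusted p of 6.62e-05 and 6.60e-05 in limma. With the mean of its probe sets it was 2.09 log2 units higher at P3 and 1.80 at P6, and was still called. Cdkl1 was 3.31-fold higher at P3 (adjusted p = 0.0066) and its change of 0.65 at P6 was not called. Cdk20 was 3.32-fold lower and Cdk10 was also lower at P3, and neither was called at P6. The P3 calls were lost under 1 of 17 alternatives for Cdkl1, 4 for Cdk20 and 7 for Cdk10. Over the 17 alternatives the higher count ran from 1 to 3 at P3 and from 1 to 4 at P6, and the lower count from 0 to 5 and from 0 to 2.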
